A study of Cavia porcellus with 10 samples.

Results

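The bone morphogenetic protein (BMP) ligands and receptors were followed in the sclera (the fibrous, collagen-built wall of the eye) of guinea pigs (Cavia porcellus) with and without lens-induced myopia. The set holds 10 genes, the ligands BMP2, BMP3, BMP4, BMP5, BMP6 and BMP7, the type I receptors BMPR1A, BMPR1B and ACVR1, and the type II receptor BMPR2. They were found in the deposited count table by symbol, ignoring case. Each of the 10 symbols stood on 1 line of the 17642 lines that carry a symbol, and all 10 were among the 14683 genes that passed the filter on low counts.

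The myopia group held 5 RNA-seq libraries, each from the sclera of 1 eye of male animals aged 2 to 3 weeks that wore myopia-inducing lenses on both eyes. The control group held 5 libraries from eyes of untreated male animals of the same age. No mutation, transgene or drug is named for either group, and the labels give no lens power, wearing time or breed. Whether any 2 libraries of a group come from eyes of 1 animal is not given, so the p-values reflect only the spread among these libraries, and that spread may be technical.

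BMPs are secreted dimers of the TGF-beta superfamily. A BMP dimer brings type II receptors together with type I receptors, the type II kinase phosphorylates the type I kinase, and the type I kinase phosphorylates SMAD1, SMAD5 and SMAD9. These join SMAD4, enter the nucleus and switch on genes such as ID1 to ID3 and the inhibitory SMADs, while secreted antagonists such as noggin and gremlin trap the ligands. BMPs are expressed in ocular tissues, including the retinal pigment epithelium, choroid and sclera, where their expression has been studied in animals with altered eye growth.

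Total counts were 32309258 to 34055139 per library in myopia and 32568123 to 35430797 in control. The scaling factors (TMM, trimmed mean of M values) were 1.11 to 1.25 in myopia and 0.777 to 0.968 in control, and the first principal component held 77.1% of the variance of log2 CPM (reads of a gene per 1000000 reads of the library). On it the myopia libraries scored 61.5 to 72.5. Control libraries 4 and 5, at -49.7 and -24.6, lay nearest to them, and control libraries 1 to 3 scored -94.6 to -81.5. The numbered RPL and RPS ribosomal protein genes held 4.04% to 4.50% of counts in myopia and 6.49% to 9.26% in control. The 10 scleral fibroblast markers, among them the collagen I chains and decorin, were all measured, with summed levels of 71138 to 98165 CPM in myopia and 125387 to 156813 CPM in control. COL1A1 made up the larger part of that gap, at 35555 ± 3273 CPM in myopia and 82728 ± 9358 CPM in control, and the list as a whole was mixed, with 3 markers higher, 3 lower and 4 not called. Summed markers of other cell types also differed. They were lower in myopia without overlap for red blood cells (100.1 to 456 CPM against 2504 to 10560 CPM in control), leukocytes (136 to 184 CPM against 276 to 357 CPM), retinal pigment epithelium (84.9 to 130.0 CPM against 146 to 198 CPM), cartilage (217 to 303 CPM against 345 to 524 CPM) and photoreceptors (54.9 to 231 CPM against 238 to 408 CPM). The ranges overlapped for melanocyte, skeletal muscle, endothelial, smooth muscle and Schwann cell markers. No marker with a line in the table was at 0 in every library. Of the markers of these 5 lists without overlap, 19 of 36 tested were lower and 3 higher in myopia. Over all genes tested, 35.1% were called lower and 36.9% higher. These lists were picked because their sums were lower, so the excess of lower calls is partly given by that choice and is no separate result. The part of the marker shifts in the results below was not tested.

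Of the 10 BMP genes, 4 rose in the myopic sclera (BMPR2, BMPR1B, ACVR1 and BMP5), 1 fell (BMP6) and 5 did not pass the test (BMP2, BMP3, BMP4, BMP7 and BMPR1A). The test was edgeR's quasi-likelihood test on the counts, with Benjamini-Hochberg adjustment over all 14683 genes and a threshold of 0.05. The same test called 71.9% of all genes tested, 36.9% higher and 35.1% lower, so the 5 called of 10 were no larger a share than that of genes at large. Over the 10 genes the log2 fold change had a median of 0.57, beside 0.03 over all genes tested. In whole tissue, fewer cells of a type and less RNA per cell cannot be told apart. The plots of CPM by library show these values gene by gene.

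**Figure D1:**
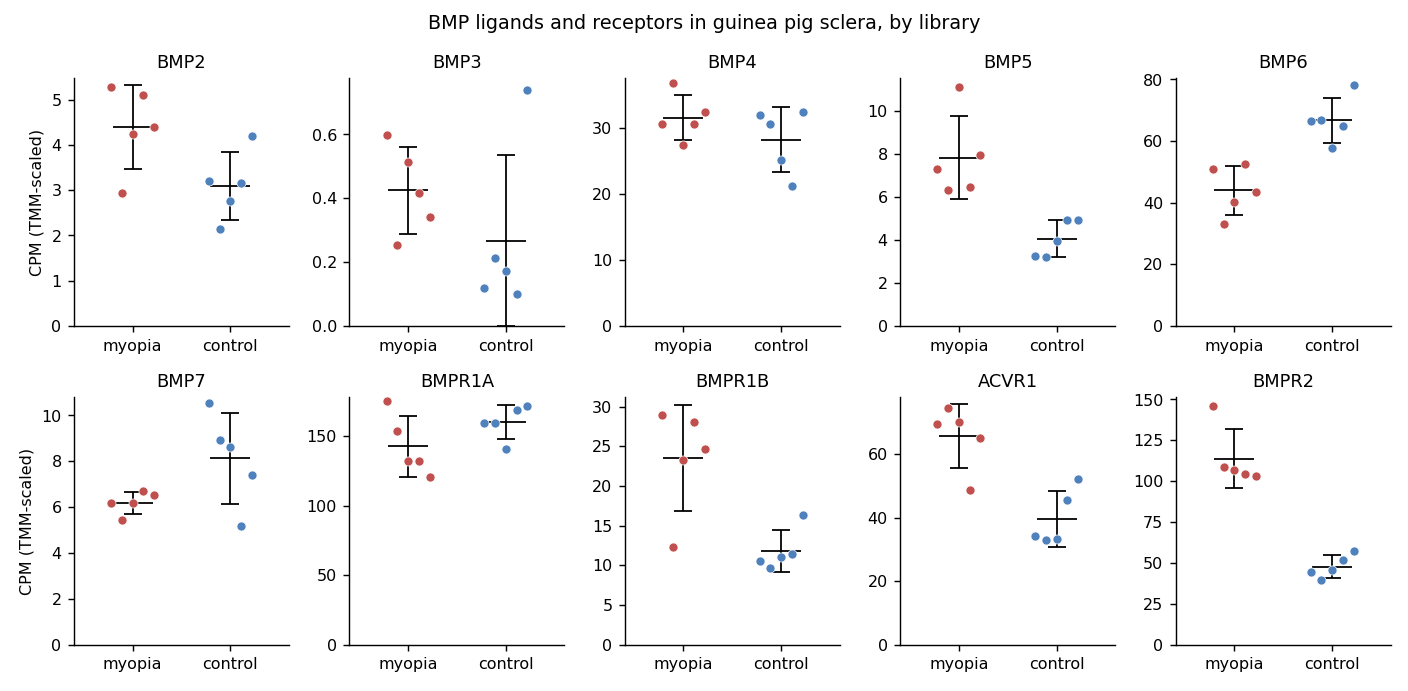
Each panel plots the level of 1 gene in CPM (TMM-scaled, linear axis from 0) for the 5 myopia and the 5 control libraries as points in the order of their numbers, with the mean as a line and the SD as bars. For BMPR2 and BMP5 every myopia library lies above every control library, and for BMP6 every myopia library lies below.

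Among the receptors, the type II receptor stood apart most clearly. BMPR2, the type II receptor that binds BMPs with high selectivity and in which inactivating mutations cause heritable pulmonary arterial hypertension in humans, stood at 146, 109, 107, 104 and 103 CPM in myopia libraries 1 to 5, against 44.7, 39.4, 45.4, 51.7 and 57.4 CPM in control libraries 1 to 5. The lowest myopia library was well above the highest control library. Its log2 fold change was 1.25 ± 0.12 (SE, n = 5 per group), a 2.38-fold rise (edgeR adjusted p = 1.73e-06). Myopia 1 was the highest library, and without it the log2 fold change was 1.15.

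The type I receptors did not move alike. BMPR1B (ALK6), a receptor best known from cartilage and limb development, had 29.0, 12.3, 23.3, 28.0 and 24.7 CPM in myopia, against 10.5, 9.62, 11.1, 11.4 and 16.3 CPM in control. Myopia 2 lay far below the other 4 myopia libraries and inside the control range, so the groups overlapped. The log2 fold change was 0.99 ± 0.21 (edgeR adjusted p = 0.000938), or 1.15 without myopia 2. ACVR1 (ALK2), the type I receptor in which activating mutations cause fibrodysplasia ossificans progressiva in humans, had 69.6, 74.6, 70.2, 48.6 and 65.1 CPM in myopia, against 34.2, 32.9, 33.3, 45.4 and 52.1 CPM in control. Only myopia 4 lay inside the control range, and control libraries 4 and 5 were the highest of their group. The log2 fold change was 0.73 ± 0.15 (edgeR adjusted p = 0.000659), and 0.98 without control libraries 4 and 5.

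BMPR1A (ALK3), a broadly expressed type I receptor, was counted deeply, with 4051 to 6753 reads per library. It stood at 175, 153, 132, 132 and 121 CPM in myopia, against 159.8, 159.7, 141, 169 and 172 CPM in control. The groups overlapped broadly, with myopia 1 the highest of all 10 libraries. The log2 fold change was -0.17 ± 0.11, which did not pass (edgeR adjusted p = 0.175). It passed without myopia 1 (-0.25, adjusted p = 0.0367), and with scaling by total count the value was 0.27 (adjusted p = 0.0552).

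Among the ligands of the subgroup of BMP5, BMP6 and BMP7, which are close in sequence and bind ACVR1 among other type I receptors, the values went in different directions. BMP5 had 7.30, 6.34, 11.1, 6.49 and 7.95 CPM in myopia, against 3.23, 3.21, 3.96, 4.95 and 4.95 CPM in control. The groups did not overlap, and myopia 3 was the highest. BMP5 had a log2 fold change of 0.95 ± 0.20 (edgeR adjusted p = 0.000931), or 0.79 without myopia 3. BMP6, a ligand best known as the signal by which liver endothelium tells hepatocytes to make the iron hormone hepcidin, had 50.9, 33.1, 40.2, 52.6 and 43.3 CPM in myopia, against 66.5, 66.8, 57.8, 64.9 and 78.1 CPM in control. All myopia libraries lay below all control libraries, with a log2 fold change of -0.60 ± 0.13 (edgeR adjusted p = 0.000754), which became -0.15 and did not pass with scaling by total count (adjusted p = 0.409).

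BMP7, needed for kidney and eye development in mice, had 6.16, 5.44, 6.16, 6.69 and 6.53 CPM in myopia, against 10.5, 8.92, 8.64, 5.18 and 7.39 CPM in control. The myopia libraries were close together, with a coefficient of variation of 7.78%, against 24.5% in control. Control 4 was the lowest of all 10 libraries. The log2 fold change of -0.39 ± 0.18 did not pass (edgeR adjusted p = 0.0649). It passed without control 4 (-0.50, adjusted p = 0.0111), with control libraries 4 and 5 both left out (-0.58, adjusted p = 0.0034) and with DESeq2 (adjusted p = 0.0405), and with scaling by total count it was 0.076.

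The pair BMP2 and BMP4, close relatives that signal mainly through BMPR1A and BMPR1B, did not pass. BMP2 had 5.27, 2.93, 4.23, 5.10 and 4.40 CPM in myopia, against 3.20, 2.15, 2.77, 3.15 and 4.21 CPM in control. Myopia 2 was again the lowest of its group and control 5 the highest of its own, so the groups overlapped. Its log2 fold change was 0.50 ± 0.22 (edgeR adjusted p = 0.0581). It passed without myopia 2 (0.62, adjusted p = 0.0221), without control 5 (0.65, adjusted p = 0.019) and with control libraries 4 and 5 both left out (0.71, adjusted p = 0.0209). It also passed with scaling by total count (0.94, adjusted p = 0.00539), with upper quartile factors (0.57, adjusted p = 0.0419) and with limma-voom quality weights (0.64, adjusted p = 0.0149). BMP4, the ligand required for lens induction in mice, had 30.6, 36.7, 27.4, 30.6 and 32.4 CPM in myopia, against 31.9, 30.6, 25.1, 21.3 and 32.3 CPM in control. The groups overlapped over most of their range, with a log2 fold change of 0.16 ± 0.13 (edgeR adjusted p = 0.267). With scaling by total count it was 0.61 and passed (adjusted p = 0.0012).

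BMP3, a ligand that opposes other BMPs by occupying the activin receptor ACVR2B, was near the detection limit, with 3 to 23 reads per library. It reached 10 reads in 4 myopia libraries and in 1 control library. Its levels were 0.598, 0.254, 0.513, 0.416 and 0.342 CPM in myopia, against 0.118, 0.211, 0.171, 0.0984 and 0.739 CPM in control. The highest value of all was in control 5, and the other 4 control libraries lay below every myopia library. This gave a log2 fold change of 0.64 ± 0.55 (edgeR adjusted p = 0.308), or 1.50 without control 5 (adjusted p = 0.0171) and 1.34 without control libraries 4 and 5 (adjusted p = 0.0511). With limma-voom quality weights it was 1.19 and passed (adjusted p = 0.0347).

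The groups did not overlap for 3 of the 10 genes, with BMPR2 and BMP5 higher and BMP6 lower. Over all genes tested, 57.8% did not overlap, 29.8% being higher and 28% lower in myopia. The 3 of 10 was thus a smaller share than over all genes. With control libraries 4 and 5 both left out, the log2 fold changes were 1.41 for BMPR2, 1.19 for BMPR1B, 1.19 for BMP5 and -0.52 for BMP6, all still past the threshold.

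The scale on which libraries are compared changed the calls of BMP2, BMP4 and BMP6 and the sign of BMP7 and BMPR1A. When only library totals were used for scaling, the median over all genes moved to 0.47 on the log2 scale, and 73.5% of 10384 calls were higher, against 51.2% of 10561 with TMM factors. Relative to the median of all genes, each gene kept nearly the same place under both scalings. This follows by construction, since a change of scaling moves all genes by nearly the same amount, and it is no test of either scaling. BMPR2 lay 1.22 above the median with TMM factors and 1.21 above it with total count, BMPR1B 0.96 under both, BMP5 0.92 and 0.90, and ACVR1 0.70 and 0.68. On the other side, BMP6 lay at -0.63 relative to the median under both, BMP7 at -0.42 and -0.40, and BMPR1A at -0.20 under both.

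**Figure D2:**
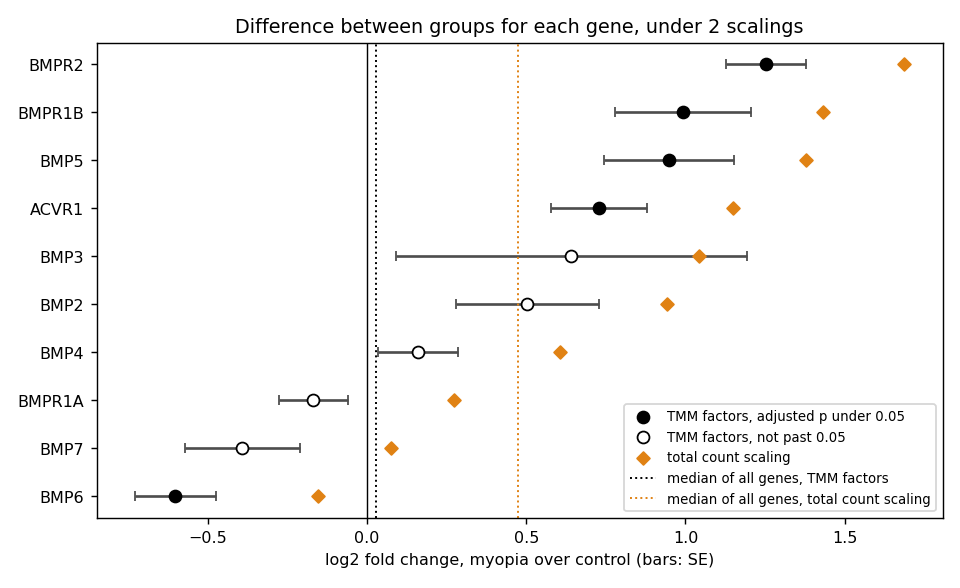
The x axis is the log2 fold change of myopia over control for each of the 10 genes. Circles with SE bars are from TMM factors (filled where the adjusted p was under 0.05), diamonds from total count scaling, and dotted lines are the medians of all genes tested at 0.03 and 0.47. The diamonds lie to the right of the circles for every gene, and BMP7 and BMPR1A change sign.

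Ratios between 2 of these genes within a library do not depend on the scaling factor, and 7 were tested with a 2-sided exact permutation test over libraries, the smallest p that the test allows being 0.00794. All 3 receptor ratios, which share BMPR1A as the denominator, differed between the groups. How often ratios of other pairs of genes differ was not computed, and 71.9% of all single genes tested were called. The log2 ratio of BMPR2 to BMPR1A reads was -0.26, -0.50, -0.31, -0.34 and -0.22 in myopia, against -1.84, -2.02, -1.63, -1.71 and -1.58 in control. The groups were far apart, with a difference of 1.43 ± 0.09 (SE, n = 5 per group), a 2.69-fold higher ratio (exact p = 0.00794, adjusted over the 7 ratios p = 0.0139). The log2 ratio of ACVR1 to BMPR1A was -1.12 ± 0.25 in myopia and -2.04 ± 0.23 in control (mean ± SD, n = 5 each), a difference of 0.92 ± 0.15 without overlap (exact permutation, adjusted p = 0.0139). The log2 ratio of BMPR1B to BMPR1A was -2.65 ± 0.57 in myopia and -3.78 ± 0.26 in control, a difference of 1.13 ± 0.28 (exact permutation, adjusted p = 0.0222). Here myopia 2, at -3.64, lay inside the control range, which ran up to -3.40 in control 5.

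Within the BMP5, BMP6 and BMP7 subgroup, BMP5 rose relative to both of the others. The log2 ratio of BMP5 to BMP6 was -2.80, -2.38, -1.85, -3.02 and -2.44 in myopia, against -4.35, -4.37, -3.86, -3.71 and -3.98 in control, a difference of 1.56 ± 0.24 and a 2.94-fold higher ratio (exact permutation, adjusted p = 0.0139). The log2 ratio of BMP5 to BMP7 was 0.31 ± 0.33 in myopia and -0.99 ± 0.67 in control, a difference of 1.30 ± 0.33 (exact permutation, adjusted p = 0.0139). The groups only just failed to overlap, since the highest control library, control 4 at -0.065, was just under the lowest myopia library, myopia 4 at -0.043. The ratio of BMP6 to BMP7 differed by -0.26 ± 0.21 and that of BMP2 to BMP4 by 0.33 ± 0.27, and neither passed (exact permutation, adjusted p = 0.302 for both). Without myopia 2 the BMP2 to BMP4 difference was 0.53 (exact permutation, adjusted p = 0.0463).

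**Figure D3:**
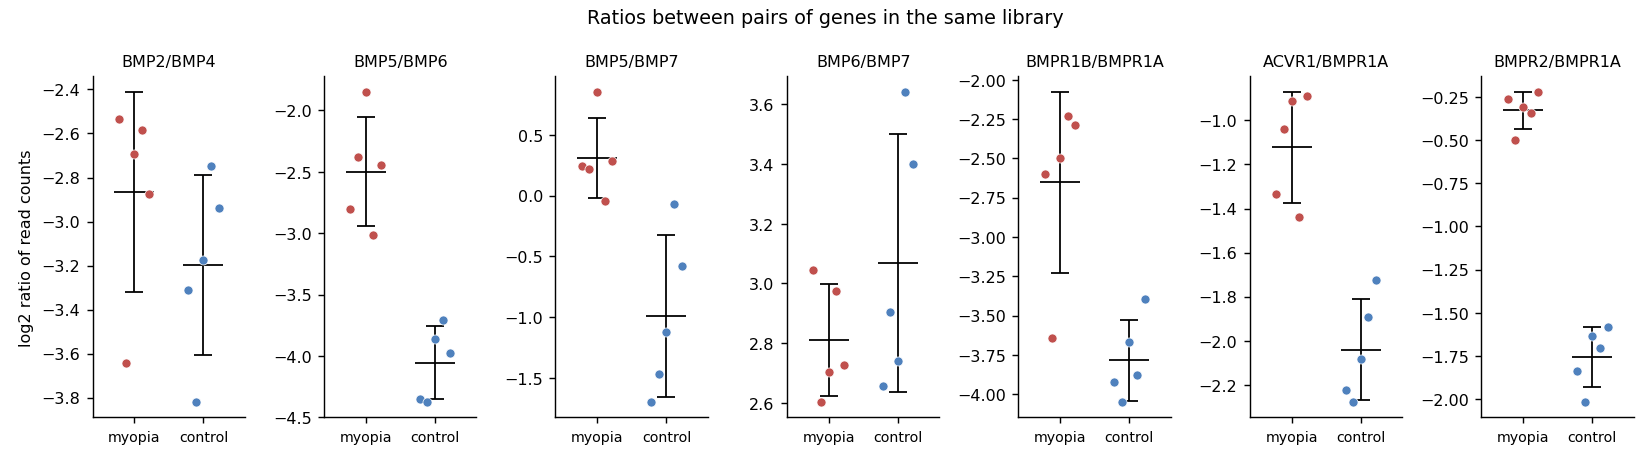
Each panel plots the log2 ratio of the read counts of 2 genes in the same library (0.5 added to each count) for 5 myopia and 5 control libraries, with the mean as a line and the SD as bars; the y axes differ between panels. The BMPR2 to BMPR1A panel shows the widest gap against the spread, with all myopia libraries between -0.50 and -0.22 and all control libraries between -2.02 and -1.58.

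How the 10 genes varied among the libraries of 1 group was described with group means removed, over 10 libraries that share the same scaling and main axis. Of the 45 pairs, 34 had a Pearson correlation above 0, with a median of 0.22 and a range of -0.65 to 0.91. BMP2, BMP6 and BMPR1B varied together most closely, with r = 0.91 for BMP2 and BMPR1B, 0.87 for BMP6 and BMPR1B and 0.80 for BMP2 and BMP6. In the myopia group all 3 were highest in myopia 1 and 4, and in the control group in control 5. Myopia 2 was the lowest of the 5 myopia libraries for all 3 of these genes, and also for BMP3, BMP5 and BMP7, while it was the highest for BMP4 and ACVR1. In the control group, control 5 was the highest for 8 of the 10 genes. The lowest correlation was between BMP7 and ACVR1 (r = -0.65).

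Beside this pattern, the summed level of 5 Schwann cell markers, the myelinating glia of peripheral nerves, was 4778, 2606, 4892, 7164 and 4667 CPM in myopia and 3929, 4892, 5041, 5582 and 6269 CPM in control. It was lowest in myopia 2 and, within control, highest in control 5. Of these 5 markers 1 was higher, 1 lower and 3 not called between the groups, and the part of these cells in the levels of BMP2, BMP6 and BMPR1B was not tested.

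**Figure D4:**
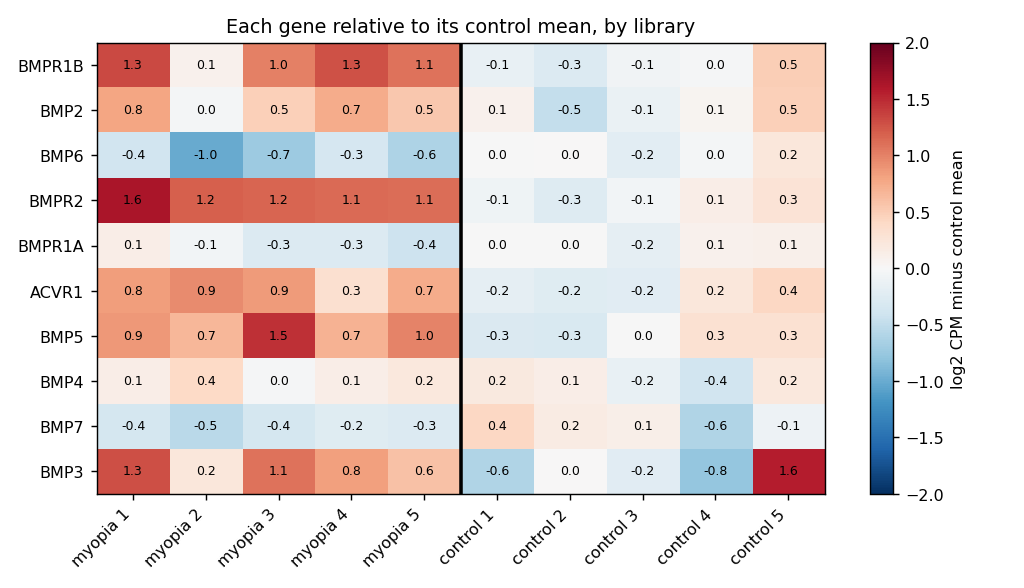
Rows are the 10 genes and columns the libraries, myopia left of control; colour and number give log2 CPM minus the mean of the control libraries. BMPR2 is between 1.1 and 1.6 in every myopia library, while the myopia 2 column is 0.0 to 0.1 for BMP2 and BMPR1B and -1.0 for BMP6.

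By likeness of pattern, measured as Pearson's r of log2 CPM over the 10 libraries among genes of at least 2 CPM, BMPR2 was most like Mob1b (0.996) and CPSF6 (0.994), ACVR1 most like Rab28 (0.991) and RERG (0.986), and BMPR1B most like SLC1A2 (0.991) and DDHD1 (0.982). BMPR1A was most like Helz2 (0.950) and SLC45A4 (0.950). For the ligands the nearest genes were Clip2 (0.971) and Csnk1d (0.967) for BMP6, Chmp1b2 (0.969) and GOLT1B (0.967) for BMP5, GALNT15 (0.957) and Rims2 (0.955) for BMP2, PWWP2B (0.913) and CD79A (0.907) for BMP7, PLD5 (0.903) and TMEM70 (0.898) for BMP3, and Chek2 (0.856) and Wdr19 (0.847) for BMP4. These values describe 10 libraries in which most genes differ between the groups.

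The other genes of the pathway were read from a list of 96 symbols in 8 roles, of which 80 were tested. In all, 27 were higher and 29 lower in myopia, with a median log2 fold change of 0.13, and these shares lie near those of all genes given above. With scaling by total count, 43 were higher and 15 lower, where 52% of all genes were called higher and 18.7% lower.

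Of the 6 SMADs of the BMP branch, 4 were higher and 1 lower, with a median of 0.64. Over all genes tested, 36.9% were higher and 35.1% lower, and 6 genes are few to set beside these shares. SMAD5, one of the SMADs that BMP type I receptors phosphorylate, had 13.2, 11.1, 9.32, 13.0 and 10.3 CPM in myopia, against 0.355, 0.106, 0.444, 1.12 and 1.67 CPM in control. No control library came near the myopia range, control libraries 4 and 5 being the highest of the control group, and the log2 fold change was 3.92 ± 0.47 (edgeR adjusted p = 1.02e-05). SMAD5 averaged 437 reads per library in myopia and 22.2 in control, so the size of this fold change rests on few control reads. Of the other BMP SMADs, SMAD1 averaged 33.9 ± 3.40 CPM in myopia and 20.7 ± 4.29 CPM in control, and SMAD9 averaged 37.8 ± 7.23 CPM in myopia and 19.1 ± 4.46 CPM in control, with log2 fold changes of 0.71 ± 0.13 and 0.98 ± 0.17. SMAD4, the common partner, rose by 0.57 ± 0.09 on the log2 scale. The inhibitory SMAD6, itself induced by BMP signals, fell, with 21.4 ± 1.32 CPM in myopia and 36.4 ± 3.27 CPM in control and a log2 fold change of -0.76 ± 0.09 (edgeR adjusted p = 6.4e-06), while SMAD7 was not called.

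Among the genes known as BMP targets, 4 of 15 were higher and 6 lower, with a median of 0.03. The shares over all genes tested were 36.9% higher and 35.1% lower. ID1, a helix-loop-helix inhibitor of differentiation and a widely used readout of BMP signals, had 214, 209, 234, 249.8 and 278 CPM in myopia, against 498, 441, 470.2, 352 and 342 CPM in control. All myopia libraries lay below all control libraries, with a log2 fold change of -0.83 ± 0.13 (edgeR adjusted p = 6.08e-05). ID3 averaged 363 ± 43.6 CPM in myopia and 479 ± 41.5 CPM in control, a log2 fold change of -0.40 ± 0.11 (edgeR adjusted p = 0.00428) that was 0.060 with scaling by total count (adjusted p = 0.626). ID2 moved the other way, with 68.3 ± 8.64 CPM in myopia and 49.5 ± 6.59 CPM in control and a log2 fold change of 0.46 ± 0.11 (edgeR adjusted p = 0.00245). ATOH8 is a transcription factor induced by BMPs in endothelium, HES1 a Notch and BMP target, and ALPL the alkaline phosphatase of mineralising cells. They fell, at -1.07 ± 0.16, -0.84 ± 0.10 and -1.55 ± 0.13 on the log2 scale. Of the other targets called, SNAI2, MSX2 and HEY1 rose, at 0.82 ± 0.13, 1.03 ± 0.37 and 0.32 ± 0.13 on the log2 scale. MSX1 fell, at -0.85 ± 0.20.

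With TMM factors the antagonists split evenly, 5 of 17 being higher and 5 lower, beside 36.9% and 35.1% of all genes tested. Over the alternatives run, 4 to 11 were higher and 3 to 5 lower. CHRDL1 (chordin-like 1), the gene of X-linked megalocornea in humans, rose to 57.1 ± 5.53 CPM in myopia, against 14.2 ± 7.49 CPM in control, a log2 fold change of 2.00 ± 0.27 (edgeR adjusted p = 3.32e-05). GREM1 (gremlin), which binds BMP2, BMP4 and BMP7, and CRIM1, a membrane protein that binds BMPs, rose by 1.36 ± 0.28 and 1.18 ± 0.16 on the log2 scale. NBL1, a relative of gremlin, and FSTL3, which binds activins, had log2 fold changes of -1.30 ± 0.12 and -0.89 ± 0.08. NOG (noggin, -0.39 ± 0.24), CHRD (chordin, -0.054 ± 0.115) and FST (follistatin, 0.26 ± 0.15) did not pass (edgeR adjusted p = 0.155, 0.688 and 0.137). NOG passed without control 2 (-0.52, adjusted p = 0.0441) and FST without control 1 (0.40, adjusted p = 0.0148). With scaling by total count, FST (0.71, adjusted p = 0.000594) and CHRD (0.40, adjusted p = 0.00195) both passed as higher. CHRD stands on 2 lines of the table, of which the one with the higher mean is given.

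Among 5 other receptors tested, 2 were higher and 1 lower, beside 36.9% and 35.1% of all genes tested. The activin type II receptors ACVR2B and ACVR2A, which also bind BMPs, rose by 1.51 ± 0.15 and 0.64 ± 0.16 on the log2 scale, ACVR2B averaging 12.3 ± 1.03 CPM in myopia and 4.31 ± 0.820 CPM in control. ACVRL1 (ALK1), the BMP9 and BMP10 receptor of endothelium, averaged 59.5 ± 5.54 CPM in myopia and 84.1 ± 6.92 CPM in control, a log2 fold change of -0.50 ± 0.09 (edgeR adjusted p = 0.000225) that was -0.045 with scaling by total count (adjusted p = 0.639). In a list of 7 that joins co-receptors with the pseudoreceptor BAMBI, 2 were higher and 3 lower, beside the same shares of all genes. ENG (endoglin), the endothelial partner of ACVRL1, and RGMA, a co-receptor that binds BMP2 and BMP4, fell, at -1.04 ± 0.12 and -0.99 ± 0.10 on the log2 scale. TGFBR3 (betaglycan) rose by 0.44 ± 0.13. BAMBI, which lacks a kinase, had -0.32 ± 0.11 (edgeR adjusted p = 0.017), and its call ended without control 3 (-0.28, adjusted p = 0.052) and without control libraries 4 and 5 (-0.25, adjusted p = 0.082), with 0.12 under scaling by total count.

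Of 6 proteases that mature BMPs or cut their antagonists, 1 was higher and 4 lower, beside 36.9% and 35.1% of all genes tested. FURIN and PCSK6, convertases that cleave proBMPs, had log2 fold changes of -0.35 ± 0.09 and -0.55 ± 0.16, and BMP1, which despite its name is a metalloprotease that cleaves procollagen and chordin, had -0.42 ± 0.10. With scaling by total count these 3 values were 0.094, -0.12 and 0.037, and none passed. TLL1, a protease of the BMP1 family, rose by 1.53 ± 0.24 (edgeR adjusted p = 7.61e-05). Of 13 intracellular genes listed as regulators of SMADs and type I receptors, most of them negative, 7 were higher and 4 lower. Beside these counts stand the same 36.9% and 35.1% of all genes. CTDSP1, a SMAD phosphatase, and STUB1, a ubiquitin ligase that acts on SMADs, fell, at -1.04 ± 0.11 and -0.65 ± 0.07 on the log2 scale. NEDD4L, a ubiquitin ligase for activated SMADs, rose by 0.66 ± 0.09. USP15, a deubiquitinase that acts on receptor-activated SMADs and promotes their signalling, rose by 1.25 ± 0.14.

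Other ligands of the TGF-beta superfamily numbered 11 tested of 19 listed. Higher were 2 and lower 5, beside 36.9% and 35.1% of all genes tested. INHA (the inhibin alpha chain) averaged 8.51 ± 1.21 CPM in myopia and 22.5 ± 5.80 CPM in control, and GDF11 averaged 43.0 ± 1.47 CPM in myopia and 58.2 ± 8.37 CPM in control, with log2 fold changes of -1.40 ± 0.17 and -0.44 ± 0.10 (0.021 for GDF11 with scaling by total count). GDF9 and MSTN (myostatin) were near the detection limit, GDF9 at 0.286 to 0.479 CPM in myopia and 0.707 to 2.36 CPM in control, and MSTN at 0.421 to 1.57 CPM in myopia and 0 to 0.193 CPM in control. GDF9 was called lower and MSTN higher (edgeR adjusted p = 0.0002 and 0.000486). MSTN averaged 34 reads in myopia and 2.6 in control. It passed the filter on low counts only through the myopia group, so its call as higher is not independent of that filter.

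**Figure D5:**
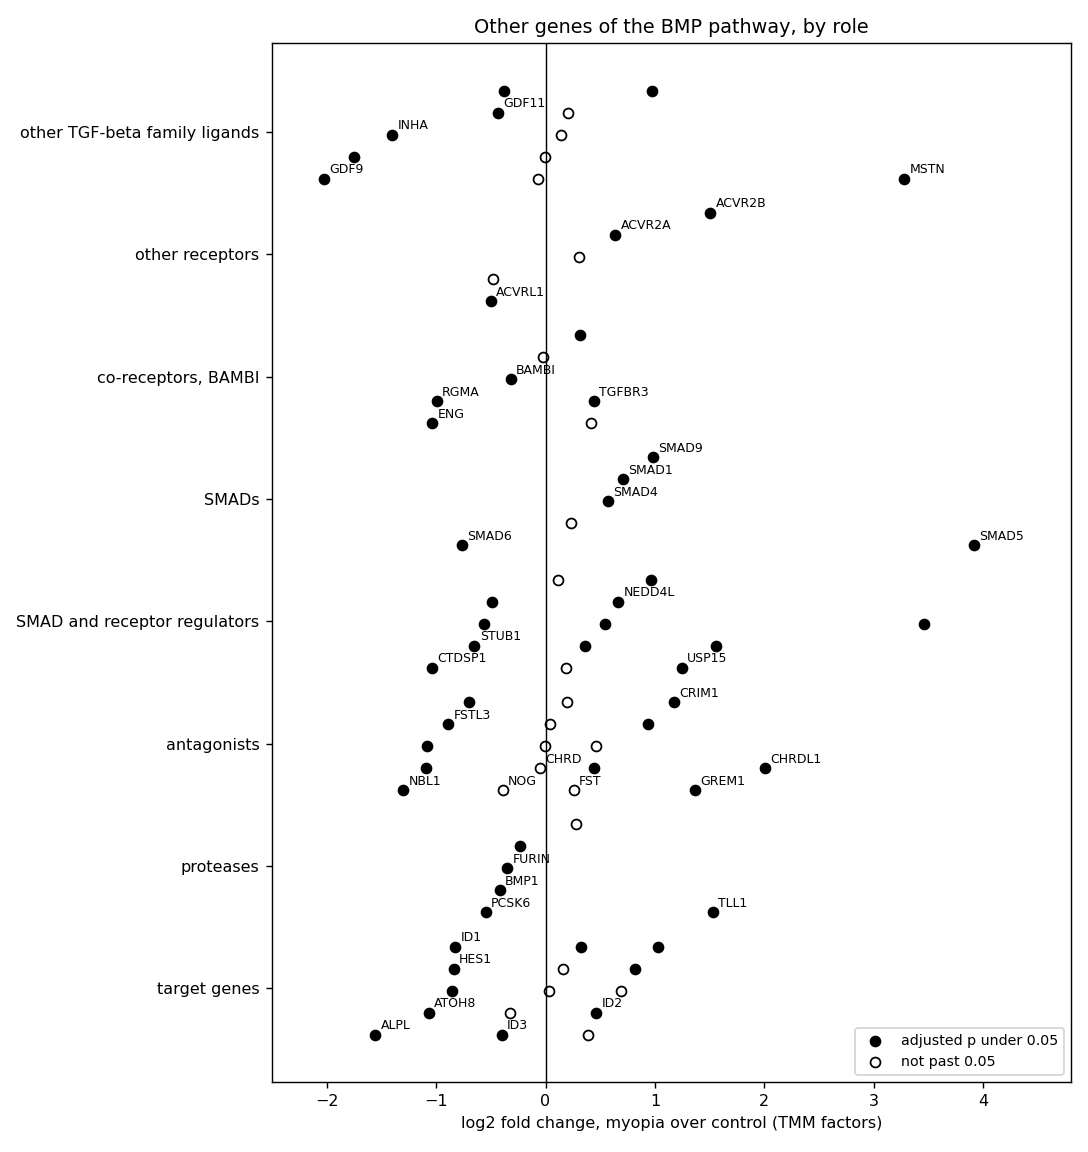
Each point is 1 of the 80 other pathway genes tested, by role, placed by its log2 fold change of myopia over control (TMM factors). Filled points had an adjusted p under 0.05, and heights within a role only separate the points. The genes named in the text carry their symbol, except SMAD7, SNAI2, MSX2, HEY1 and MSX1. SMAD5 lies farthest to the right at 3.92, the 4 SMADs called higher lie opposite SMAD6, and ID1 and ID3 lie left of 0 while ID2 lies right of it.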

How the data were processed

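RNA was measured by RNA-seq in the sclera of 5 myopia and 5 control eyes. The authors deposited raw counts of reads per gene symbol, 1 column per library, assigned to samples by the library titles. Which aligner, counter, annotation and strand setting were used is not given in the sources used here. Overlapping or antisense genes may therefore share reads. The mouse builds GRCm38 and mm10 are named without a role in the submitters' processing notes, so coordinates and lengths are left out and levels are compared within a gene.

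Of 18079 lines, 437 without a symbol (0.751% to 0.824% of counts in myopia, 1.18% to 1.69% in control) were left out. For a symbol on several lines, the line with the highest mean was used. filterByExpr (minimum count 10, minimum total 15) kept 14683 genes. The test was edgeR 4.0.16 in R 4.3.3 (TMM, robust glmQLFit, glmQLFTest, group as the only term, Benjamini-Hochberg over all genes, threshold 0.05). CPM values are TMM-scaled, and log2 CPM has a prior count of 2. SEs are log2 fold changes over the root of the quasi-likelihood F. On simulated data for this comparison (14683 genes, 200 of them changed) the test recovered 74.1% of 2-fold and 95.7% of 4-fold changed genes. It called 9 unchanged ones. In the data 71.9% of genes were called, so the simulation does not cover the error under a difference in most genes. Counts of replicates differed beyond sampling (chi-square of 18.7 to 122 per degree of freedom), and no library was a copy of another.

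Named are the 10 genes, the 2 genes most like each, at most 4 called genes per role by smallest p, and ID1, ID2, ID3, SMAD1, SMAD5, SMAD4, NOG, GREM1, CHRD and FST. SMAD7, SNAI2, MSX2, HEY1 and MSX1 are mentioned beyond that rule, after their values were seen. The genes, lists and tests were chosen with earlier results of these data known. Alternatives were other scalings and filters, DESeq2 1.42.0, limma-voom (limma 3.58.1) with and without quality weights, non-robust dispersion, the replicate number as a block, summed lines, each library left out, and control libraries 4 and 5 left out.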

Additional observations from a re-analysis of the deposited data

Results flagged for a closer look

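In 110 sets of 5 libraries of 1 group (CPM or log2 ratio), 6 held a library whose gap to its nearest neighbour exceeded Dixon's critical share of the range, and chance flags about 1 in 20 sets. BMPR2 stood at 146 CPM in myopia 1, with the next myopia library at 109 CPM and the lowest at 103 CPM. The log2 ratio of BMPR1B to BMPR1A was -3.64 in myopia 2, with the next at -2.60 and the highest at -2.23. The other 4 were all in control 5. BMPR1B stood there at 16.3 CPM, with the next control library at 11.4 CPM and the lowest at 9.62 CPM. BMP3 stood there at 0.739 CPM, against 0.0984 to 0.211 CPM in the rest of the group, and CRIM1 at 99.4 CPM, against 52.2 to 63.7 CPM. ALPL stood there at 18.5 CPM, against 24.2 to 25.9 CPM in the rest of the group. For each of these 4 genes control 5 lay on the side of the control mean where the myopia mean lies, and control 5 was also the control library nearest to myopia on the first principal component.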

How the results depend on the processing

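BMPR2, BMPR1B, ACVR1 and BMP5 kept their direction and call in all 22 alternatives run, with log2 fold changes of 1.15 to 1.69, 0.91 to 1.43, 0.68 to 1.15 and 0.79 to 1.38. The number of the 10 genes called higher stayed between 4 and 6. BMP2 and BMP4 joined with total count scaling, and BMP2 and BMP3 with limma-voom quality weights and without control 5. BMP2 alone joined with upper quartile factors, without myopia 2 and without control libraries 4 and 5. The number called lower was 0 with total count scaling, 2 with DESeq2, 2 with quality weights, 2 without control libraries 4 and 5, and 1 to 2 when 1 library was left out. Total count scaling also gave 43 higher and 15 lower pathway genes and 2751 lower genes of all tested, against 5149. Under it the log2 fold change turned to 0.076 for BMP7, 0.27 for BMPR1A, 0.021 for GDF11, 0.12 for BAMBI, 0.056 for NOG, 0.40 for CHRD (which then passed as higher), 0.037 for BMP1, 0.094 for FURIN and 0.060 for ID3. CHRD was also 0.020 with upper quartile factors, 0.040 with summed lines, and -0.13 to 0.013 with 1 library left out. The shift of the median of all genes accompanies these changes by construction of the scaling.

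Same-numbered libraries did not deviate together (correlations -0.13 to 0.01). The numbers thus showed no sign of pairing, though such correlations cannot exclude a weak one. With the replicate block no call of the 10 genes changed, but in the paired sign-flip test of the ratios the smallest possible p is 0.0625, so the differences of 1.56 (BMP5/BMP6), 1.30 (BMP5/BMP7), 1.13 (BMPR1B/BMPR1A), 0.92 (ACVR1/BMPR1A) and 1.43 (BMPR2/BMPR1A) could not pass (adjusted p = 0.0729). The BMP6/BMP7 difference was 0.044 without control libraries 4 and 5. With 1 library left out, the BMP2/BMP4 difference ran from 0.18 to 0.53. Depth limits BMP3, GDF9 and MSTN, whose counts are few, and the size of the SMAD5 fold change, since SMAD5 counts are few in control.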
